A study of Bos taurus with 9 samples.

Results

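MOGAT1, LIPH and PLA2G7 are the enzymes of glycerolipid and phospholipid turnover in a deposited list of 47 genes reported as differing between groups of bovine blastocysts. They were taken by gene symbol, all 3 were found, and they make up 3 of the 47. The list was selected on the expression values of these same libraries, and its selection rule is unknown here. The blastocyst is the early embryo with a fluid-filled cavity, and 9 libraries of Bos taurus embryos, all labelled female, fell into 3 groups of 3. Control blastocysts were not vitrified. The AKG-free group was cryopreserved by vitrification, in which the medium turns to glass without ice crystals, and then warmed. The AKG-treated group was vitrified and warmed and also received α-ketoglutarate (AKG), a metabolite that mitochondria form and use up in the tricarboxylic acid cycle. The dose, timing and route of AKG, the age of the embryos and the number of embryos in a library were not known.

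Mammalian MOGAT1 is a membrane enzyme of the endoplasmic reticulum that adds a fatty acyl chain to monoacylglycerol. Its product, diacylglycerol, stands at the branch between storage triacylglycerol and the membrane phospholipids, and bovine embryos are known for their abundant lipid droplets. LIPH is a membrane-bound phospholipase of the A1 class that cleaves phosphatidic acid to lysophosphatidic acid, a lipid signal read by G protein-coupled receptors. PLA2G7, the secreted platelet-activating factor acetylhydrolase, removes the short acyl chain of platelet-activating factor and of oxidised phospholipids, and in humans it circulates on lipoproteins and is made largely by macrophages.

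In the deposited annotation, of unstated genome build, MOGAT1 (ENSBTAG00000008431) lies on chromosome 2, 110843395 to 110873230, on the plus strand, with 1 transcript. LIPH (ENSBTAG00000001535) lies on chromosome 1, 81636267 to 81688516, on the plus strand, with 3 transcripts. PLA2G7 (ENSBTAG00000019315) lies on chromosome 23, 19924777 to 19963342, on the minus strand, with 1 transcript. The 3 genes are thus on different chromosomes, and all are protein coding. In the RefSeq gene table of assembly ARS-UCD2.0 no other gene overlapped any of them. The genes also differ in annotated function. LIPH and PLA2G7 share the annotation lipid catabolic process, which no other listed gene carries in the annotation at hand, while MOGAT1 is annotated to diacylglycerol biosynthesis and shares no term with the other two.

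Levels are given as FPKM, fragments scaled to gene length and to the total mapped in that library, as deposited by the authors. Values listed one by one for a group follow its libraries 1, 2 and 3, and a group is summarised as mean ± SD of its 3 libraries. Relative sequencing depth, from the ratio of count to FPKM, ran from 0.793 to 1.17 around a mean of 1, and absolute depth is unknown. One FPKM stood for 86.0 to 125 counts of MOGAT1, 108 to 159 counts of LIPH and 149 to 216 counts of PLA2G7. AKG-free libraries 2 and 3 stood apart from the others: counts over the 47 genes summed to 55940, 207900 and 362783 in the AKG-free group and to between 32230 and 50780 elsewhere. The sums cover genes listed as differing, so a gap between groups is in part built in. S100A11 (100184 and 182658 counts) and NUCB2 (62032 and 90981 counts) made up most of the sums of AKG-free libraries 2 and 3. PLA2G7 alone took 8.72% of the counts over the 47 genes in AKG-free library 3, against 0.142% to 0.512% in the other 8. The deposited list is titled as single-cell RNA sequencing, and what made up a library is not known beyond the blastocyst label. With whole embryos or pools, fewer cells of a type and less RNA per cell cannot be told apart. The labels do not tie libraries to separate collections of embryos, so a p-value here reflects the spread among the libraries at hand, part of which may be technical.

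The AKG-free group had the highest mean of the 3 groups for 38 of the 47 listed genes and the lowest for the rest, so the comparisons that involve it may have shaped the list and are described here without a test. Vitrified blastocysts without AKG had more MOGAT1, LIPH and PLA2G7 transcript than controls in every library, although the 3 genes differed widely in how evenly the AKG-free libraries shared the higher level. Libraries of the 2 groups did not overlap, with the AKG-free group higher, for all 3 enzymes and for 15 of the 47 listed genes, or 31.9%. Since this contrast may have chosen the genes, nothing is read from that share.

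The control level of MOGAT1 was 0.381, 0.919 and 0.303 FPKM, from 45, 79 and 30 counts. Its AKG-free level was 4.52, 6.27 and 11.9 FPKM, from 537, 682 and 1487 counts. The lowest AKG-free value was 4.92 times the highest control value, so the groups were well apart in every library. Group means were 7.55 ± 3.84 against 0.534 ± 0.335 FPKM, a ratio of 14.1, which became 22.1 without control library 2. The ratio of medians was 16.5. By medians this was the second highest ratio among the 19 listed genes with reads in all 6 libraries, whose median ratio of means was 4.37. Outside those 19, PAG11, with no reads in control library 2, had a higher ratio of medians, 29.4.

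For LIPH the controls measured 4.42, 2.11 and 3.68 FPKM. The AKG-free values were 5.89, 18.1 and 20.6 FPKM. AKG-free library 1 lay close to the controls, at 1.33 times the highest of them, while AKG-free libraries 2 and 3 were several times higher. The 95% Poisson intervals ran from 5.50 to 6.29 FPKM in AKG-free library 1 and from 4.09 to 4.77 FPKM in control library 1. They leave out amplification and the spread among libraries, so they are no test of the gap. Means were 14.9 ± 7.90 against 3.40 ± 1.18 FPKM, a ratio of 4.37, which was the middle of the same 19 genes.

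PLA2G7 was the least even of the enzymes. The controls measured 0.574, 0.348 and 0.781 FPKM, from 117, 52 and 132 counts. The AKG-free group measured 1.22, 4.87 and 147 FPKM, from 251, 913 and 31627 counts. All 3 AKG-free values lay above all 3 controls, but AKG-free library 3 held 96.0% of the summed FPKM of its group. The means, 50.9 ± 82.9 against 0.568 ± 0.216 FPKM, gave the highest ratio of the 19 genes, 89.7. Without AKG-free library 3 the ratio was 5.36, and the ratio of medians was 8.49, which ranked the fourth.

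**Figure D1:**
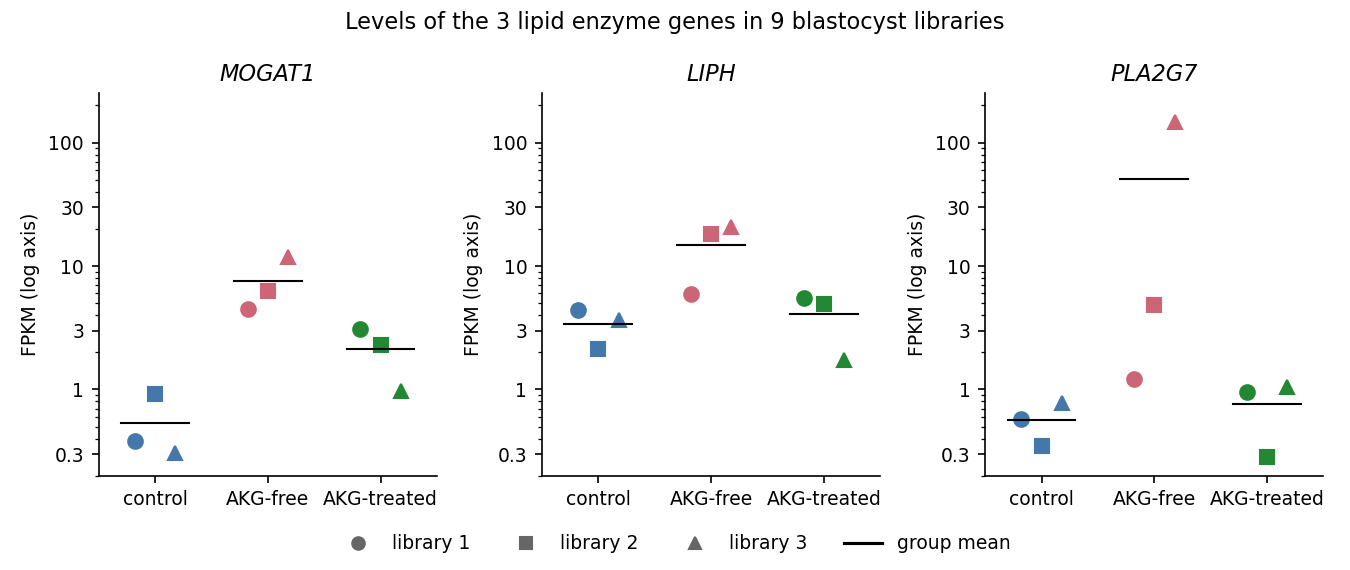
FPKM (log axis, same range in each panel) of MOGAT1, LIPH and PLA2G7 in each of the 9 libraries, grouped as control, AKG-free and AKG-treated; the marker shape gives the library number and the black line the group mean. The AKG-free libraries are above the controls for all 3 genes, and PLA2G7 in AKG-free library 3 (147 FPKM) lies far above every other value.

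The spread within the AKG-free group was compared across the 23 listed genes with reads in all 3 of its libraries. The highest PLA2G7 value was 120 times the lowest, ahead of S100A11 at 32.5 times and SYCP2 at 32.0 times. PLA2G7 in AKG-free library 3 was 30.1 times its level in AKG-free library 2, a gap above 10 for only 1 other of these genes, SYCP2. LIPH (3.51 times) and MOGAT1 (2.63 times) stood 10th and 16th in this order. All 3 enzymes were lowest in AKG-free library 1 and highest in AKG-free library 3, as were 12 of the 23 genes, so that order was common on the list.

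**Figure D2:**
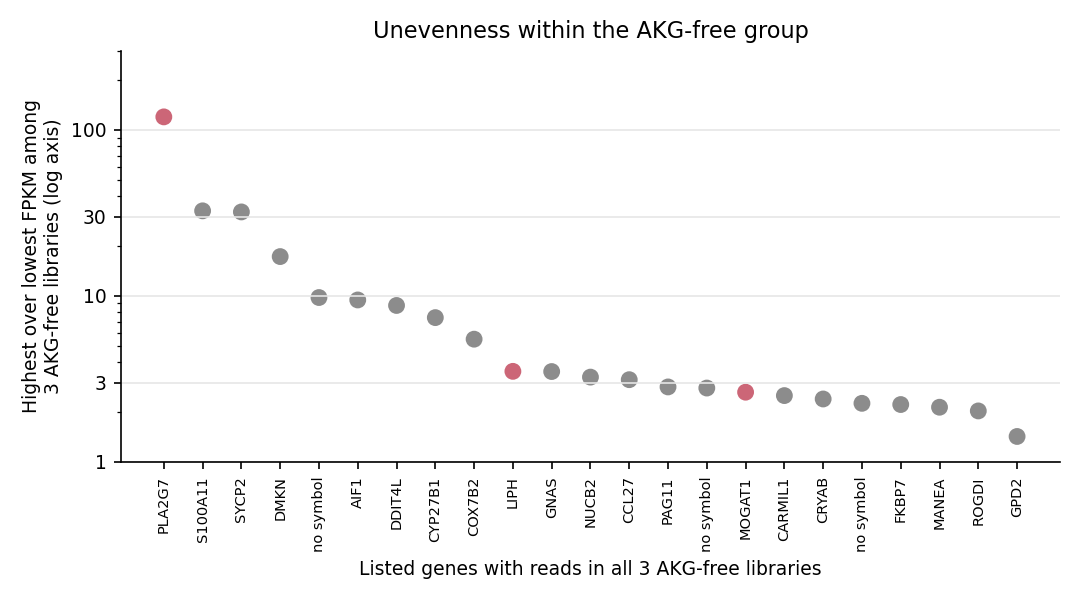
Highest FPKM divided by lowest FPKM (log axis) among the 3 AKG-free libraries for each of the 23 listed genes with reads in all 3, with the lipid enzymes in red and the other genes in grey. PLA2G7 stands first at 120, and LIPH (3.51) and MOGAT1 (2.63) stand 10th and 16th.

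PLA2G7 has a listed gene close beside it. ANKRD66 (ENSBTAG00000047009, chromosome 23, 19970227 to 19984806, plus strand), an ankyrin repeat gene, begins 6884 bases from the 5′ start of PLA2G7 on the opposite strand, so that the genes point away from each other, and is also its neighbour in the RefSeq table. It was named after its values were seen. ANKRD66 had 291 counts (1.72 FPKM) in AKG-free library 3 and 0 counts in the other 8 libraries, so its reads fell in the library with the very high PLA2G7 value. That was not particular to ANKRD66. MMP19, UPK3A, CCK, ANKRD22 and ENSBTAG00000052298, also named after their values were seen, had reads in AKG-free library 3 only as well. The 291 ANKRD66 counts equal 0.920% of the PLA2G7 counts of that library. The same share of the 913 PLA2G7 counts in AKG-free library 2 would be 8.40 counts, where none were found. Whether the reads of ANKRD66 and PLA2G7 are linked was not tested. MOGAT1 and LIPH had no such neighbour, with their nearest listed genes 71040379 and 3451523 bases away.

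AKG-treated blastocysts were set against AKG-free ones to show how the enzymes stood in vitrified embryos that received AKG. All 3 were lower with AKG, again without overlap between the libraries, and 12 of the 47 listed genes, or 25.5%, were lower without overlap. The list may have been shaped by this contrast too, so that share is given as background and nothing is read from it. This comparison and the one with controls share the AKG-free libraries, so low values here and high values there are not independent of each other.

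With AKG, MOGAT1 measured 3.07, 2.31 and 0.964 FPKM, from 298, 245 and 106 counts. The mean of 2.11 ± 1.07 FPKM was 0.280 of the AKG-free mean. The lowest AKG-free library remained 1.47 times the highest AKG-treated one. Their 95% Poisson intervals, 4.15 to 4.92 and 2.73 to 3.44 FPKM, did not meet, but these leave out amplification and the spread among libraries.

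LIPH measured 5.48, 4.96 and 1.74 FPKM with AKG, a mean of 4.06 ± 2.02 FPKM, or 0.273 of the AKG-free mean. The groups were separate only by a narrow margin: AKG-free library 1 had 1.07 times the level of AKG-treated library 1. Their Poisson intervals overlapped, at 5.50 to 6.29 and 5.07 to 5.91 FPKM, so the order of these 2 libraries was within counting error. The gap between the group means was carried by AKG-free libraries 2 and 3, at 18.1 and 20.6 FPKM.

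PLA2G7 measured 0.954, 0.286 and 1.05 FPKM with AKG, from 160, 53 and 199 counts. The mean of 0.762 ± 0.415 FPKM was 0.0150 of the AKG-free mean, but 0.250 of it without AKG-free library 3, and the ratio of medians was 0.196. AKG-free library 1 (95% Poisson interval 1.08 to 1.38 FPKM) and AKG-treated library 3 (0.906 to 1.20 FPKM) overlapped within counting error. Whether AKG-free library 3 is counted thus decides the size of both PLA2G7 ratios, but not their direction.

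**Figure D3:**
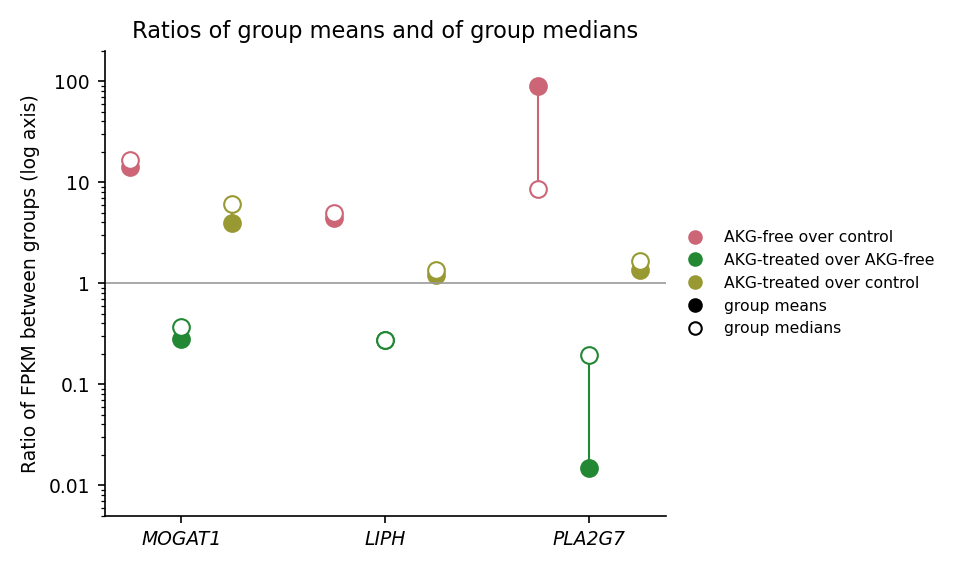
Ratios of FPKM between groups (log axis) for MOGAT1, LIPH and PLA2G7, as ratios of group means (filled) and of group medians (open), with colour giving the pair of groups and the grey line marking a ratio of 1. For PLA2G7 the AKG-free over control ratio is 89.7 by means and 8.49 by medians, and for MOGAT1 the AKG-treated over control ratio is 3.96 by means and 6.06 by medians.

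AKG-treated blastocysts were then compared with controls to ask what still differed in vitrified embryos that received AKG. This contrast leaves out the AKG-free group and was tested with edgeR's quasi-likelihood test on the counts of all 47 genes, with all 9 libraries in the fit. The genes were still chosen on these libraries, so the p-values are not independent evidence. No listed gene passed an adjusted p of 0.05 (0.0% higher and 0.0% lower), and 1 gene, or 2.13%, had an unadjusted p under 0.05. limma on log2(FPKM + 1) also called 0 genes, and DESeq2's Wald test called 3, none of them an enzyme described here.

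MOGAT1 was the enzyme with the largest remaining difference. Its 3 AKG-treated values lay above its 3 control values, as for 6 of the 47 genes, or 12.8%, although only 27 of the 47 had reads in these 2 groups. The margin was small, because AKG-treated library 3 (0.964 FPKM, Poisson interval 0.789 to 1.17) exceeded control library 2 (0.919 FPKM, 0.727 to 1.14) by less than counting error. The ratio of means was 3.96, the highest of the 21 listed genes with reads in all 6 libraries, whose median was 1.31. Outside those 21, PAG11, with no reads in control library 2, had a ratio of 7.22 by means and 2.02 by medians. For MOGAT1 the ratio of medians was 6.06. edgeR gave a log2 change of 1.97 (SE 0.854, 95% interval -0.02 to 3.97, unadjusted p = 0.0519), which missed the threshold after adjustment over the 47 genes (adjusted p = 1). Genes without reads in either group count in that adjustment. With only the 6 libraries compared and their 27 genes, edgeR gave an adjusted p of 0.303 (unadjusted 0.0290). With the filter at a mean of 0.5 FPKM edgeR gave 0.394 (unadjusted 0.0272). The unadjusted p was 0.00435 with DESeq2's Wald test and 0.161 in edgeR with DESeq2 size factors. Leaving out single libraries moved the log2 change between 1.60 and 2.62 without passing the adjusted threshold, and the change was 1.23 with DESeq2 size factors.

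LIPH overlapped between AKG-treated and control libraries, with AKG-treated library 3 below all 3 controls and the other AKG-treated libraries above them. The ratio of means was 1.19, and edgeR gave a log2 change of 0.25 (SE 0.812, 95% interval -1.64 to 2.15, adjusted p = 1). Without AKG-treated library 1 the change was -0.02. It was -0.07 with TMM factors and -0.35 with DESeq2 size factors. These scalings moved the median log2 change of 21 listed genes, 0.39 in the main fit, by -0.22 and -0.53. Most of the move in LIPH was thus a common shift, and the sign of its change depends on the scaling chosen. PLA2G7 also overlapped, with a ratio of means of 1.34 and a log2 change of 0.42 (SE 1.56, 95% interval -3.22 to 4.06, edgeR adjusted p = 1), and -0.06 with DESeq2 size factors under the same common shift. The wide PLA2G7 interval includes AKG-free library 3 in the shared spread, and without that library it ran from -1.60 to 2.44. For neither gene do the missed thresholds show equal levels, since both intervals reach beyond 1 log2 unit on each side of 0.

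**Figure D4:**
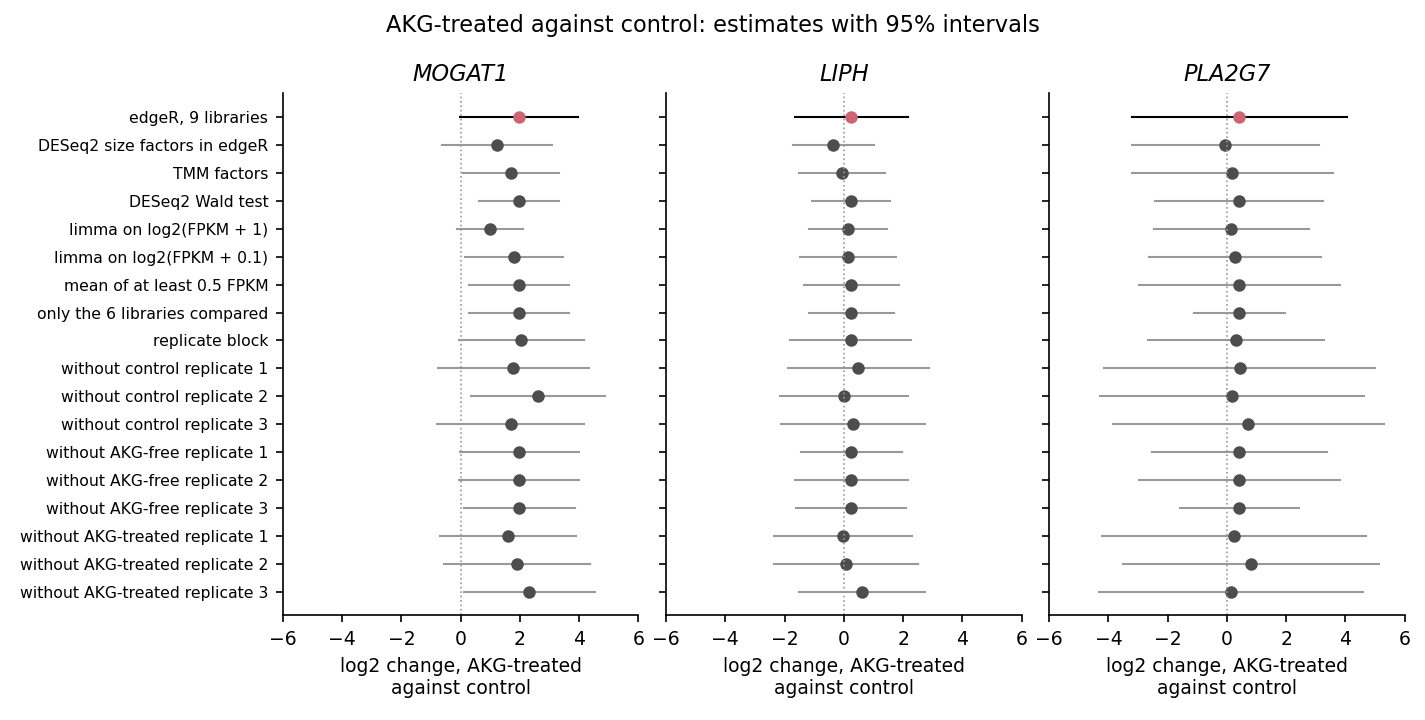
Log2 change of MOGAT1, LIPH and PLA2G7 in AKG-treated against control libraries (points) with 95% intervals (lines), for the edgeR fit on 9 libraries (red point) and each alternative named at the left. MOGAT1 estimates are above 0 in every fit (0.98 to 2.62), but their intervals cover 0 in the edgeR fit on 9 libraries (-0.02 to 3.97) and several others. LIPH and PLA2G7 lie near 0 with intervals that cover it in every fit.

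The order of the enzymes within a library was also compared, since a ratio of 2 genes in 1 library does not depend on its depth. LIPH had the highest FPKM of the 3 in 8 of the 9 libraries, the exception being AKG-free library 3, where PLA2G7 led. LIPH was 11.6, 2.30 and 12.1 times MOGAT1 in the controls. The ratio was 1.30, 2.89 and 1.74 without AKG and 1.78, 2.15 and 1.81 with it. Both vitrified groups were thus nearer to equal levels than controls 1 and 3, while control library 2, which had the most MOGAT1 and the least LIPH of the controls, lay among the vitrified libraries. PLA2G7 was 0.379 to 2.57 times MOGAT1 in controls, 0.124 to 1.09 times in AKG-treated libraries, and 0.270, 0.777 and 12.3 times in the AKG-free group.

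Across the 9 libraries, log2(FPKM + 1) of MOGAT1 and LIPH correlated at r = 0.854, of MOGAT1 and PLA2G7 at r = 0.767 and of LIPH and PLA2G7 at r = 0.780. These values describe 9 libraries that share the group differences on which the genes may have been chosen. As deviations from the group means, which remove those differences, the values were 0.665, 0.655 and 0.540. Of the other 22 listed genes with a symbol and a mean of at least 0.5 FPKM, MOGAT1 was most like NUCB2 (r = 0.962), CRYAB (0.919) and AIF1 (0.905). LIPH was most like NUCB2 (0.940), COX7B2 (0.914) and MANEA (0.896). By deviations the closest were CRYAB (0.902) and NUCB2 (0.831) for MOGAT1, and NUCB2 (0.901) and MANEA (0.875) for LIPH. CRYAB had 0 FPKM in every control and at most 0.464 FPKM with AKG. The controls thus added nothing to its likeness by deviations, and most of its spread came from the AKG-free libraries.

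PLA2G7 was most like DMKN (r = 0.974), a secreted protein of epithelia, CYP27B1 (0.910), the enzyme that activates vitamin D, and S100A11 (0.859), a calcium-binding protein. By deviations the closest were DMKN (0.960) and CRYAB (0.884), the latter again drawing mostly on the AKG-free libraries. The AKG-free values of DMKN were 0.442, 1.83 and 7.62 FPKM, and those of the other 6 libraries ran from 0.0517 to 0.475 FPKM. The likeness to CYP27B1 rested largely on AKG-free library 3, since r over the other 8 libraries was 0.513, against 0.872 for DMKN and 0.956 for S100A11. The order of likeness also depended on that library. Over the other 8, S100A11 was closest to PLA2G7 and DMKN came behind several other genes.

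Few related genes could be placed beside the enzymes. Of a list of 91 genes of glycerolipid and phospholipid metabolism, only MOGAT1, LIPH and PLA2G7 are among the 47, and none of 13 lipid droplet genes or 28 fatty acid genes is; the others were not analysed here. By the deposited KEGG annotation 3 listed genes belong to glycerolipid, glycerophospholipid or ether lipid metabolism, namely MOGAT1, PLA2G7 and GPD2, the mitochondrial glycerol-3-phosphate dehydrogenase, which was named after its values were seen. GPD2 measured 2.53, 9.07 and 4.35 FPKM in controls, 11.9, 9.05 and 12.9 FPKM without AKG, and 5.03, 6.11 and 2.92 FPKM with AKG. Unlike the 3 enzymes, its control and AKG-free libraries overlapped, but only just, since AKG-free library 2 had 0.998 times the level of control library 2. GPD2 was the most even of the 23 genes within the AKG-free group.

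Because PLA2G7 is known from macrophages, markers of that cell type were looked for. Of 8 macrophage markers, AIF1 is the only one among the listed genes, and the other 7 were not analysed here. Control levels of AIF1 ran from 5.11 to 13.2 FPKM, AKG-free levels were 16.9, 55.0 and 160 FPKM, and AKG-treated levels ran from 12.2 to 27.0 FPKM. It was highest in AKG-free library 3, as PLA2G7 was, at 2.90 times AKG-free library 2, where the PLA2G7 factor was 30.1. Of 13 trophectoderm markers, those of the outer layer of the blastocyst, only PAG11 is among the listed genes. PAG11 measured 1.52, 0 and 1.44 FPKM in controls and 1.36, 17.1 and 2.90 FPKM with AKG. Its AKG-free values were 42.2, 67.9 and 24.0 FPKM, within that group lowest where the 3 enzymes were highest. Over the 9 libraries its level correlated with MOGAT1, LIPH and PLA2G7 at r = 0.780, 0.750 and 0.469. By deviations from the group means the values were -0.330, 0.184 and -0.366. No marker of the inner cell mass or primitive endoderm is among the 47, so the labelled tissue could not be checked further, and the part of cell makeup in the enzyme levels was not tested.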

How the data were processed

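Total RNA was amplified by SMART-Seq v4 and sequenced in read pairs, per the labels' protocols. The tools named in the submitters' processing notes are HISAT2 2.0.4, StringTie 1.3.4d, cutadapt 1.9 and edgeR, without roles or settings. Genome build, annotation version and use of strand were not stated. The authors deposited FPKM per library and, in the series table, FPKM with the raw count of each gene; the FPKM of all 9 single-library tables were identical to it. FPKM is not corrected for composition, so abundant transcripts lower all others.

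Counts were tested with edgeR 4.0.16 (quasi-likelihood, no dispersion trend, Benjamini-Hochberg over 47 genes) in R 4.3.3. Library sizes came from relative depth, the count over FPKM of 13 genes that reached 100 counts in every library, which agree within 0.811%. SEs and intervals were derived from the coefficient and its F value. The test was also run on simulated counts with the same spread for every gene and no gene made absent from a group. The real counts differ in both, so that run does not show how the test behaves on them. Alternatives were limma 3.58.1 on log2(FPKM + 1) and log2(FPKM + 0.1), DESeq2 1.42.0 with a mean dispersion fit and no outlier filter, other scalings, a filter at a mean of 0.5 FPKM (passed by all 3 enzymes), the 6 libraries compared, a replicate term and leaving out libraries. Poisson intervals are exact and cover counting error only, since amplified reads are not independent molecules. Ratios are of group means. Genes were named if they were members, on the lipid list, AIF1 or PAG11, or among the 3 closest by levels or 2 closest by deviations; other exceptions are stated. The members and lists were chosen with earlier results of these data known. Protein and promoter sequences were not analysed here. Python 3.11.15, numpy 2.4.6, pandas 2.3.3, scipy 1.17.1 and matplotlib 3.10.9 were used.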

Additional observations from a re-analysis of the deposited data

How the results depend on the processing

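For AKG-treated against control libraries, DESeq2's Wald test called 3 of the 47 genes where edgeR called 0: CRYAB, which was higher, and ENSBTAG00000052298 and ENSBTAG00000053475, which had no reads in either group. LIPH turned to -0.35 on the log2 scale with DESeq2 size factors and to -0.066 with TMM factors, and PLA2G7 to -0.057 with DESeq2 size factors, under which MOGAT1 went from 1.97 to 1.23. These scalings take most genes as unchanged and shifted the median log2 change of 21 listed genes by -0.53 and -0.22, so a move of about that size was common to the list. MOGAT1 missed the adjusted threshold in all fits run, coming closest with DESeq2 (adjusted p = 0.0511). Leaving out single libraries gave 0 called genes throughout, and log2 changes of 1.60 to 2.62 for MOGAT1, -0.021 (without AKG-treated library 1) to 0.62 for LIPH and 0.13 to 0.81 for PLA2G7; at least 2 libraries remained in every group. Leaving out libraries gave ratios of AKG-free to control means of 10.1 to 22.1 for MOGAT1, 3.53 to 5.70 for LIPH and 5.36 to 133 for PLA2G7. For AKG-treated over AKG-free means the ranges were 0.217 to 0.392, 0.209 to 0.350 and 0.0101 to 0.250. By medians the PLA2G7 ratio was 0.196 in place of 0.0150. The main fit did not pair libraries by replicate number. Correlations of deviations between same-numbered libraries ran from -0.22 to 0.20 over 29 genes. In 9 of 18 cases a library correlated best with its own number, out of the 3 libraries of another group. These values cannot settle whether equal numbers mark a shared collection of embryos, which was not tested. With a replicate block, the log2 changes were 2.05 for MOGAT1, 0.24 for LIPH and 0.30 for PLA2G7, with 0 genes called. Low counts limit MOGAT1 in controls, where 30 to 79 counts leave wide intervals.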
